A study of Helianthus annuus with 2 samples.

Results

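The regions described here are clusters of neighbouring H3K4me3 peaks in developing sunflower seeds at 28 days after anthesis (DAA). On the 17 chromosomes, peaks of the list labelled 28 DAA were joined into 1 domain when the gap between them was at most 1000 bp, and domains with 4 or more peaks were kept. This gave 1532 clusters among 84732 joined domains (1.81%), and they held 6373 of the 122415 peak intervals (5.21%). The 28 DAA positions chose the clusters, so their 28 DAA values are given as a description, while the list labelled 13 DAA played no part in the choice.

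Seeds of the high-oleic mutant sunflower line CAS-9 (Helianthus annuus) were collected at 28 DAA, the late stage of fatty acid biosynthesis, and at 13 DAA, the early stage, from plants kept in growth chambers. Chromatin of both stages was immunoprecipitated with an antibody against H3K4me3 and sequenced (ChIP-Seq), with 1 library and 1 peak list per stage. The sources used here do not say whether seeds of several plants were pooled, and a developing seed holds several tissues, so fewer marked cells and a weaker mark per cell cannot be told apart. With 1 library per stage, no test between the stages was possible, and every interval below covers counting error only. The study's text assigns the interval numbers of the lists to the opposite stages, so 28 DAA and 13 DAA below refer to the deposited labels.

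H3K4me3 is the trimethylation of lysine 4 on histone H3, a mark carried by nucleosomes near the start of transcribed genes. In plants, it usually covers the promoter end of the gene and the first part of the transcribed region, and genes with this mark tend to be active. A region with several separate summits can be a single gene, neighbouring genes or a repeated element, and no gene models were used here.

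The genome-wide background, taken as the smallest local background in a list, was 143 fragments per 10 kb in the 28 DAA list and 157 in the 13 DAA list, values that depend on the genome size given to the peak caller. On the chromosomes, 122415 intervals were called at 28 DAA and 162824 at 13 DAA. The fold enrichment of an interval is the ratio, given by the peak caller, of the fragments piled up at the summit to those of the local background. Together with the p-value, this ratio gave the whole number of fragments under the summit, which could be solved for 100% of the intervals of both lists. The local background equalled a whole number of fragments in a 10 kb window for 100% of the intervals above the genome-wide background, scaled only by the fragment length, which was taken as the shortest interval. No factor for a separate control was needed, and a window of this size around a summit covers most or all of its cluster, so the fragments of a cluster also count in its own background.

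Most clusters had the smallest size that the rule allowed. There were 1310 clusters with 4 intervals (85.5%), 205 with 5, 12 with 6, 4 with 7 and 1 with 8. The median length was 2308 bp (95% order-statistic interval 2274 to 2335, quartiles 1974 and 2704), and the clusters ran from 964 to 5328 bp. Length was larger in clusters of 5 or more than in those of 4, with medians of 2234 bp for 4 intervals, 2904 bp for 5, 3490 bp for 6 and 3323.5 bp for 7, yet the longest cluster had only 4 intervals. The intervals filled a median of 56.5% of the cluster length, with quartiles of 47.4% and 65.7%. This share was 61.8% in joined domains of 3 intervals and 71.2% in those of 2. Domains of more intervals have more gaps per interval, so the share falls with size even when widths and gaps are alike. Altogether, the clusters spanned 3637 kb, of which 2029 kb lay inside intervals.

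Summits within the clusters stood at irregular distances. Over 4841 neighbouring pairs, the median spacing was 593 bp (95% order-statistic interval 585 to 601), the quartiles were 440 and 807 bp, and the range was 206 to 2016 bp. The spacing was 639 bp in domains of 3 intervals and 691 bp in domains of 2. The most frequent distances were from 400 to 500 bp, with 17.5% of the pairs, and only 3.37% were below 300 bp. No second maximum stood out in the plot of spacing. Inside a cluster, the widest spacing was a median of 2.01 times the narrowest (quartiles 1.57 and 2.55). The gaps between neighbouring intervals had a median of 263 bp, and 37.8% of them were at most 200 bp while 22.1% were over 500 bp.

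**Figure D1:**
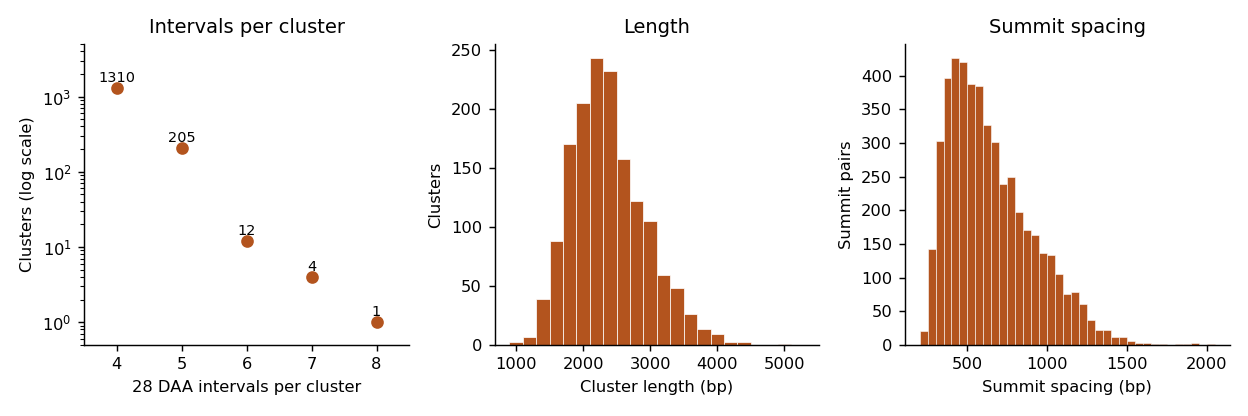
Left, number of clusters (log scale) against the 28 DAA intervals per cluster. Middle, clusters by length in bins of 200 bp. Right, pairs of neighbouring summits by their spacing in bins of 50 bp. The number falls from 1310 clusters of 4 intervals to 1 of 8, lengths centre on 2308 bp and spacings have a single broad maximum with a tail beyond 1000 bp.

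The limit on the gap decided few clusters closely. For 64 clusters, membership rested on a gap within 50 bp below the limit, and these had a median length of 2876.5 bp. A gap within 50 bp above it would have added 69 clusters, with a median of 3008 bp. On the other side of the size limit there were 6599 domains of exactly 3 intervals, with a median length of 1702 bp, against 1310 clusters of exactly 4.

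The single summits in clusters were tall in fragments but modest in enrichment. Member intervals had a median of 58 fragments at the summit (quartiles 43 and 84, range 13 to 241), while domains of 3 had 57, domains of 2 had 53 and single intervals had 29. Their median fold enrichment was 4.52 (quartiles 3.59 and 5.93, range 1.75 to 15.7), against 5.28, 6.10 and 6.12 in domains of 3, of 2 and in single intervals. The local background stood in the opposite order, with medians of 12.0 fragments in clusters, 10.1 in domains of 3, 7.94 in domains of 2 and 3.61 in single intervals. Thus the local background was 5.23 times the genome-wide one in clusters and 1.57 times in single intervals. Of the member intervals, 0.0628% stood on the genome-wide background, against 0.455% in domains of 3, 3.88% in domains of 2 and 23.5% of single intervals. Over all 28 DAA intervals the share was 12.3%. Neighbouring called summits count in the same 10 kb window, so the rule itself favours a low share in clusters.

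The width of member intervals was close to that of single intervals and below that of domains of 2 and 3. The median width was 266 bp (quartiles 203 and 379), against 290 bp in domains of 3, 316 bp in domains of 2 and 261 bp for single intervals. Broad intervals of over 1000 bp made up 0.596% of the members, or 38 intervals in 38 clusters. The share was 1.33% in domains of 3, 3.34% in domains of 2 and 4.66% among single intervals, against 3.49% of all 28 DAA intervals.

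The summits of 1 cluster were of unequal height. The strongest had a median of 96 fragments (quartiles 67 and 129), and it held 2.13 times the fragments of the weakest (quartiles 1.69 and 2.61). In the 1310 clusters of 4, the height followed the place in the cluster. The first to the fourth interval along the chromosome had medians of 52, 65.5, 65 and 52 fragments, and fold enrichments of 4.13, 5.13, 5.20 and 4.26. The local background hardly varied, at 11.4, 11.4, 11.3 and 11.3 fragments. An inner interval held the strongest summit in 69.2% of these clusters, where 2 of 4 places are inner ones. In the 205 clusters of 5, where 3 of 5 places are inner ones, the share was 70.7%.

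**Figure D2:**
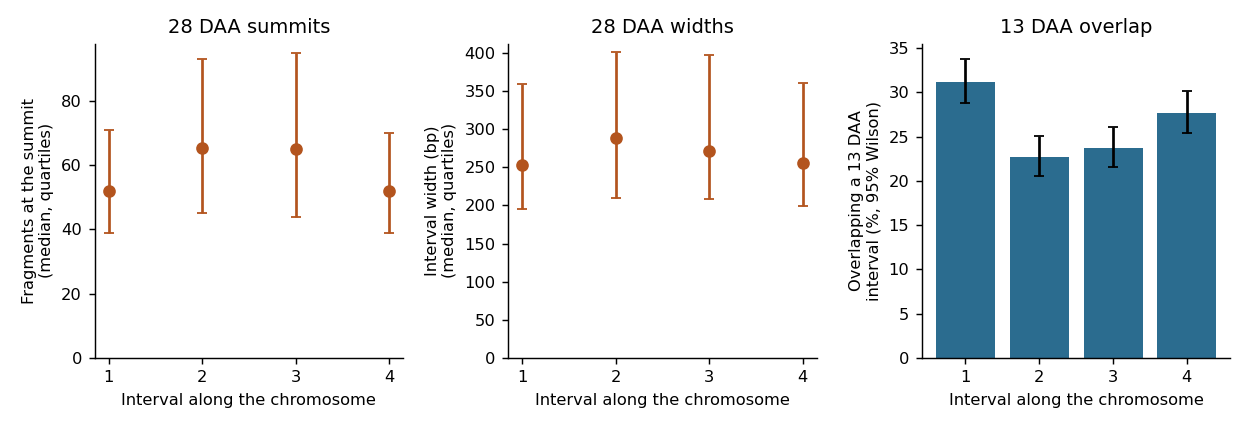
The 1310 clusters of exactly 4 intervals, with the intervals numbered along the chromosome. Left and middle, median fragments at the 28 DAA summit and median width in bp, with quartiles as bars. Right, percentage overlapping a 13 DAA interval, with 95% Wilson intervals. Inner intervals were higher (65.5 and 65 fragments, against 52 at both ends) with lower shares overlapped (22.7% and 23.7%, against 31.2% and 27.7%).

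The next question was how many 13 DAA intervals each cluster contained. At least 1 overlapped by 1 bp or more in 1017 of the 1532 clusters, or 66.4% (95% Wilson interval 64.0 to 68.7), against a background of 42.7% among all joined domains. At least 2 were found in 32.6% of the clusters, against 8% of all domains. This share was 23.0% in domains of 3, 15.7% in domains of 2 and 2.95% for single intervals. The shares with at least 1 were 59.1% in domains of 3, 52.1% in domains of 2 and 37.0% for single intervals. A longer domain has more room for an overlap, and the picture changed when each 28 DAA interval was counted on its own. Of the member intervals, 26.5% (95% Wilson interval 25.5 to 27.6) overlapped a 13 DAA interval, against a background of 33.6% of all 28 DAA intervals. This share was 28.1% in domains of 3, 32.6% in domains of 2 and 37.0% for single intervals.

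**Figure D3:**
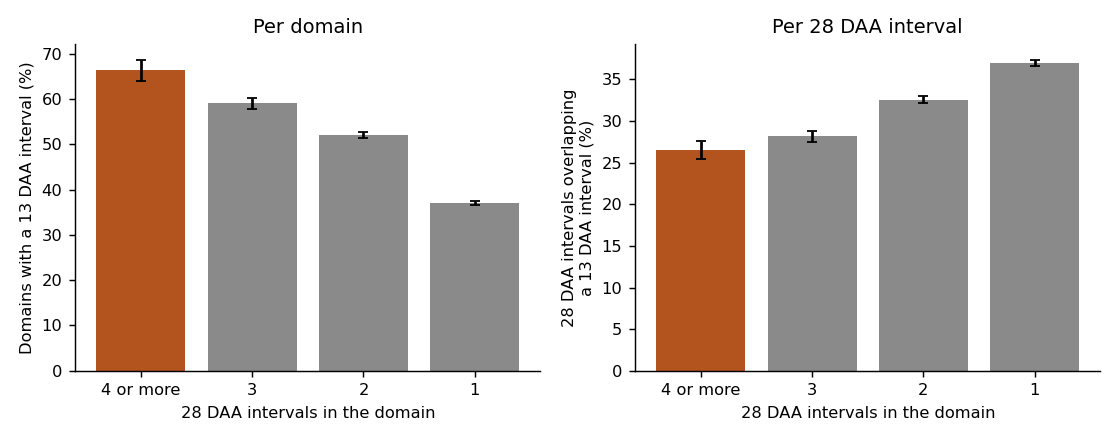
Left, percentage of joined 28 DAA domains with at least 1 overlapping 13 DAA interval. Right, percentage of 28 DAA intervals, each counted on its own, with such an overlap. Domains are grouped by their number of 28 DAA intervals and bars carry 95% Wilson intervals. Clusters of 4 or more were highest per domain (66.4%) and lowest per interval (26.5%).

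Few clusters had as many intervals at 13 DAA as at 28 DAA. No 13 DAA interval was found in 515 clusters, 1 in 518, 2 in 337, 3 in 131, 4 in 24, 5 in 6 and 6 in 1. The mean was 1.12 per cluster. In 25 clusters there were at least as many 13 DAA as 28 DAA intervals, and in 2 of them there were more. The rule required 4 or more intervals at 28 DAA and set no number at 13 DAA. The choice itself thus favours fewer intervals at 13 DAA, and these counts do not show a change between the stages. Counted by cluster size, 65.1% of the clusters of 4, 73.7% of those of 5 and 10 of the 12 clusters of 6 held a 13 DAA interval, but only 2 of the 4 clusters of 7 did. Per kb of length, clusters had 0.464 13 DAA summits, against 0.496 in domains of 3, 0.589 in domains of 2, 0.994 in single intervals and 0.0411 outside every domain. Gaps between intervals count in this length and single intervals have none, so the densities do not compare like with like. A joined 13 DAA domain of at least 3 intervals was overlapped by 122 clusters (7.96%), against 1.89% of all joined 28 DAA domains, 5.09% of the domains of 3 and 3.04% of those of 2. One of at least 4 was overlapped by 32 clusters (2.09%), against 0.313% of all domains.

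The 13 DAA summits fell on the 28 DAA intervals and not between them. Of the 1687 13 DAA summits inside clusters, 97.8% lay within a 28 DAA interval, although these intervals made up 55.8% of the summed length. This was not particular to the clusters. All joined domains together held 41838 13 DAA summits, with 41287 pairs of a 28 DAA interval and a 13 DAA summit within it. Single intervals, which have no gaps, are among these. The median distance to the nearest 28 DAA summit was 36 bp (quartiles 15 and 79.5). Only 2.91% of the overlapping 13 DAA intervals touched more than 1 28 DAA interval.

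Counted by overlap of 1 bp, a larger share of the end intervals than of the middle intervals was overlapped. In clusters of 4, the overlap was 31.2% (95% Wilson interval 28.8 to 33.8), 22.7% (20.6 to 25.1), 23.7% (21.5 to 26.1) and 27.7% (25.4 to 30.2) from the first interval to the fourth. Outer intervals together reached 29.5% and inner ones 23.2%, although the inner ones were higher at 28 DAA. In clusters of 5 the shares were 32.2% for outer and 23.6% for inner intervals. When intervals of similar height were set side by side, the outer ones had the larger share in each class. Below 40 fragments it was 20.9% for outer and 8.35% for inner intervals, from 60 to 80 fragments 30.3% and 16.2%, and at 100 fragments or more 61.3% and 56.1%. The rule of overlap mattered here. With the 13 DAA summit within the interval, clusters of 4 had 27.7% for outer and 22.3% for inner intervals, but with the 13 DAA interval wholly within it the shares were 18.7% (95% Wilson interval 17.3 to 20.2) and 19.8% (18.3 to 21.4). By position alone, the first and the last of 5 equal parts of the cluster length held 27.6% and 26.3% of the 13 DAA summits, against 25.1% and 25.1% of the 28 DAA summits.

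The pattern within single clusters was looked at next. Among clusters of 4, 458 had no overlapped interval, 446 had 1, 304 had 2, 81 had 3 and 21 had all 4. In the 446 clusters with 1, it was interval 1 along the chromosome in 144, interval 2 in 77, interval 3 in 100 and interval 4 in 125. It was the strongest 28 DAA summit of the cluster in 214 (48.0%). Over all clusters of 4, the strongest interval was overlapped in 40.5% and the weakest in 21.1%.

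Height at 28 DAA went with the presence of a 13 DAA interval. Clusters were ranked by the fragments at their strongest summit and divided into 5 groups of similar number. The share with a 13 DAA interval was 38.7% in the lowest group (23 to 62 fragments), then 53.3%, 68.4% and 78.9%, and 93.8% in the highest (138 to 241 fragments). By local background, the lowest and the highest group had 37.1% and 88.3%, and by length they had 50.3% and 81.4%. By the highest fold enrichment in the cluster they had 59.0% and 73.9%, a smaller span. These measures are linked, since a summit counts in its own background and longer clusters hold more summits.

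**Figure D4:**
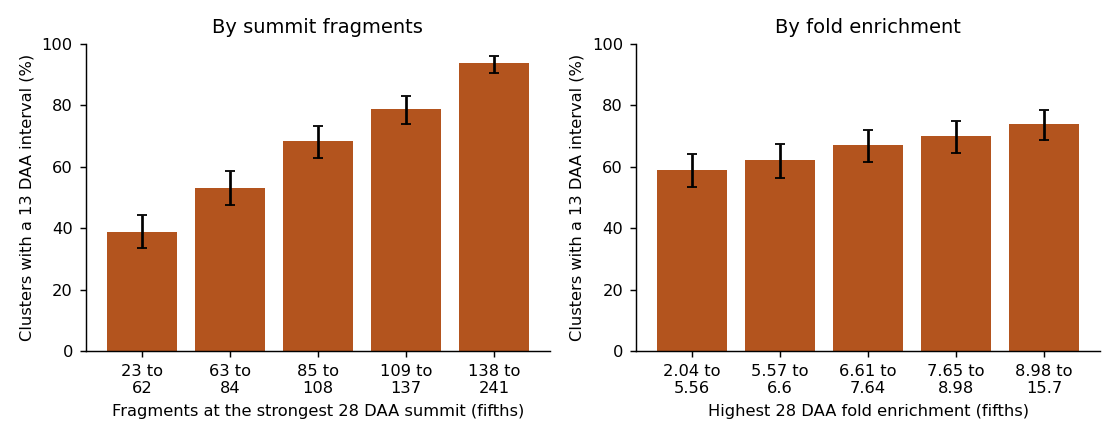
Percentage of clusters with at least 1 13 DAA interval in 5 groups of similar size, ranked by the fragments at the strongest 28 DAA summit (left) and by the highest 28 DAA fold enrichment (right), with 95% Wilson intervals. The share ran between 38.7% and 93.8% by fragments and between 59.0% and 73.9% by fold enrichment.

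Clusters with a 13 DAA interval differed from those without in most 28 DAA measures. The strongest summit had a median of 110 fragments in the 1017 clusters with one (95% order-statistic interval 107 to 113), against 71 (68 to 74) in the 515 without. The local background was 13.5 and 9.14 fragments, the length 2383 and 2177 bp, and the mean spacing 654 and 598 bp. The highest fold enrichment was 7.33 and 6.73. Member intervals were also set beside other intervals of the same class of height, without matching their widths. From 40 to 60 fragments, the share overlapped was 19.2% for member intervals, 17.8% in domains of 3, 18.0% in domains of 2 and 28.7% for single intervals. From 60 to 80 fragments, it was 22.3%, 22.6%, 24.5% and 32.9% in the same order, so that in both classes the clusters were closer to the other joined domains than to single intervals. At 100 fragments or more, the shares were 57.8%, 64.5%, 74.5% and 82.4%.

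Where both lists had a summit, the fragments differed more than the enrichment. The lists as a whole differed in the same direction, with medians of 43 fragments over all 28 DAA intervals and 19 over all 13 DAA intervals, so a difference between the stages in the clusters cannot be told apart from one between the libraries. In 1636 pairs of a 28 DAA interval and a 13 DAA summit within it, the 28 DAA summits had a median of 81 fragments (quartiles 54 and 126) and the 13 DAA summits 24 (quartiles 19 and 31). Relative to the genome-wide background of the list, these were 35.2 and 11.4 times, and 28 DAA was higher in 94.4% of the pairs, against 83.9% of the pairs over all domains. The share was 96.1% in domains of 3, 92.5% in domains of 2 and 74.4% in single intervals, so it was not particular to the clusters. By contrast, the median fold enrichment was 5.05 at 28 DAA and 5.49 at 13 DAA, with 28 DAA higher in 43.3%, against 64.5% of the pairs over all domains, 56.6% in domains of 3 and 68.6% in domains of 2. The local background, by which the fold enrichment is divided, also differed. In the 1006 clusters with a 13 DAA summit it was 5.91 times the genome-wide one at 28 DAA and 1.47 times at 13 DAA, and the first was a median of 3.91 times the second (quartiles 3.17 and 4.66). This median was 3.66 in domains of 3, 3.37 in domains of 2 and 1.74 in single intervals. A background value is known at 13 DAA only where an interval was called, so clusters without one do not enter these figures. The rule counted called 28 DAA intervals, and their fragments count in their own 10 kb window. The choice of clusters therefore favours higher 28 DAA summits and backgrounds, and these values are a description only.

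A small set of clusters had a deep background at 13 DAA. In 23 of the 1006 clusters (2.29%) the 13 DAA local background was over 5 times the genome-wide one, with a median of 22.3 times and a range of 5.73 to 33.2. Over all domains with a 13 DAA summit, the share was 0.770%. In 20 of these 23 the 28 DAA background was the lower one relative to its genome-wide value, and the ratio of 28 DAA to 13 DAA had a median of 0.579 (quartiles 0.554 and 0.668). They had a median of 4 13 DAA intervals and their highest 28 DAA fold enrichments had quartiles of 2.56 and 3.42. They lay on 11 chromosomes, 7 of them on chromosome 12, and made up 12 of the 31 clusters with 4 or more 13 DAA intervals. The set was picked by a high 13 DAA background, the divisor of the ratio above. That choice favours a low ratio and many 13 DAA intervals, so these values only describe the set.

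Single clusters show the range of these patterns, with positions in the XRQ genome counted from 1. The cluster with most intervals was chromosome 3, 1320562 to 1325478 (4917 bp), with 8 intervals at 28 DAA and 5 at 13 DAA. From left to right its 28 DAA summits held 75, 80, 94, 56, 70, 64, 69 and 56 fragments, and its 13 DAA summits held 115, 126, 117, 101 and 113. All its 28 DAA fold enrichments were low, from 1.96 to 3.25. This cluster belongs to the set with a deep 13 DAA background.

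The longest cluster and the one with most 13 DAA intervals was chromosome 9, 143816072 to 143821399 (5328 bp), with 4 intervals at 28 DAA and 6 at 13 DAA. Its 28 DAA summits held 241, 169, 185 and 178 fragments over a background of 87.1, so that the fold enrichment reached only 2.76. The height of 241 fragments was also the largest in any cluster (95% Poisson interval 212 to 273). A 28 DAA interval 2570 bp wide covered 4 of the 13 DAA intervals. Chromosome 14, 327853 to 331888 (4036 bp), had 5 intervals in both lists, with 125, 84, 101, 122 and 74 fragments at 28 DAA and 151, 100, 151, 120 and 103 at 13 DAA. Both clusters belong to the set with a deep 13 DAA background as well. Unlike most of that set, the chromosome 9 cluster had the higher background at 28 DAA relative to the genome-wide one. Its median was 5407.5 fragments per 10 kb at 28 DAA, where the genome-wide value was 143. At 13 DAA it had 1943 to 1978, where the genome-wide value was 157.

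Other clusters of many intervals had few or none at 13 DAA. The 7 intervals of chromosome 2, 89553897 to 89558126 (4230 bp), held 135, 73, 70, 93, 90, 58 and 122 fragments at 28 DAA, and no 13 DAA interval overlapped them. It was also the longest cluster without one, followed by chromosome 11, 69060169 to 69064147 (3979 bp, 5 intervals), and chromosome 15, 103910452 to 103914421 (3970 bp, 4 intervals). The remaining clusters of 7 were chromosome 16, 129604448 to 129608106, and chromosome 1, 143292261 to 143295200, each with 1 interval at 13 DAA, and chromosome 13, 70279968 to 70282955, with none. Next in length to those of chromosomes 9 and 3 came chromosome 5, 62234608 to 62239000 (4393 bp), with 5 intervals at 28 DAA and 2 at 13 DAA.

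The highest fold enrichment among the clusters with the strongest summits was on chromosome 10, 194014222 to 194016696 (2475 bp). Its 28 DAA intervals held 81, 166, 217 and 66 fragments, with fold enrichments of 3.35, 7.22, 9.62 and 3.06. At 13 DAA, from left to right, 3 of them were matched by 29, 26 and 53 fragments, with fold enrichments of 4.99, 4.48 and 8.96, and the fourth by none. The matched summits stood at 183, 890 and 1427 bp from the cluster start at 28 DAA and at 178, 871 and 1382 bp at 13 DAA. The other cluster ranked by its strongest summit was chromosome 12, 129606768 to 129610231, with 221 fragments and 3 intervals at 13 DAA.

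The tightest arrangement was at the same time the shortest cluster. On chromosome 4, 178320150 to 178321113 (964 bp), 4 intervals held 43, 50, 40 and 94 fragments with a mean spacing of 244 bp, and no 13 DAA interval was called. The next shortest were chromosome 9, 20057479 to 20058554 (1076 bp), with no 13 DAA interval, and chromosome 17, 78895146 to 78896316 (1171 bp), with 2. The largest mean spacing, 1247 bp, was found on chromosome 1, 142463182 to 142467124, a cluster of 4 with 2 intervals at 13 DAA.

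**Figure D5:**
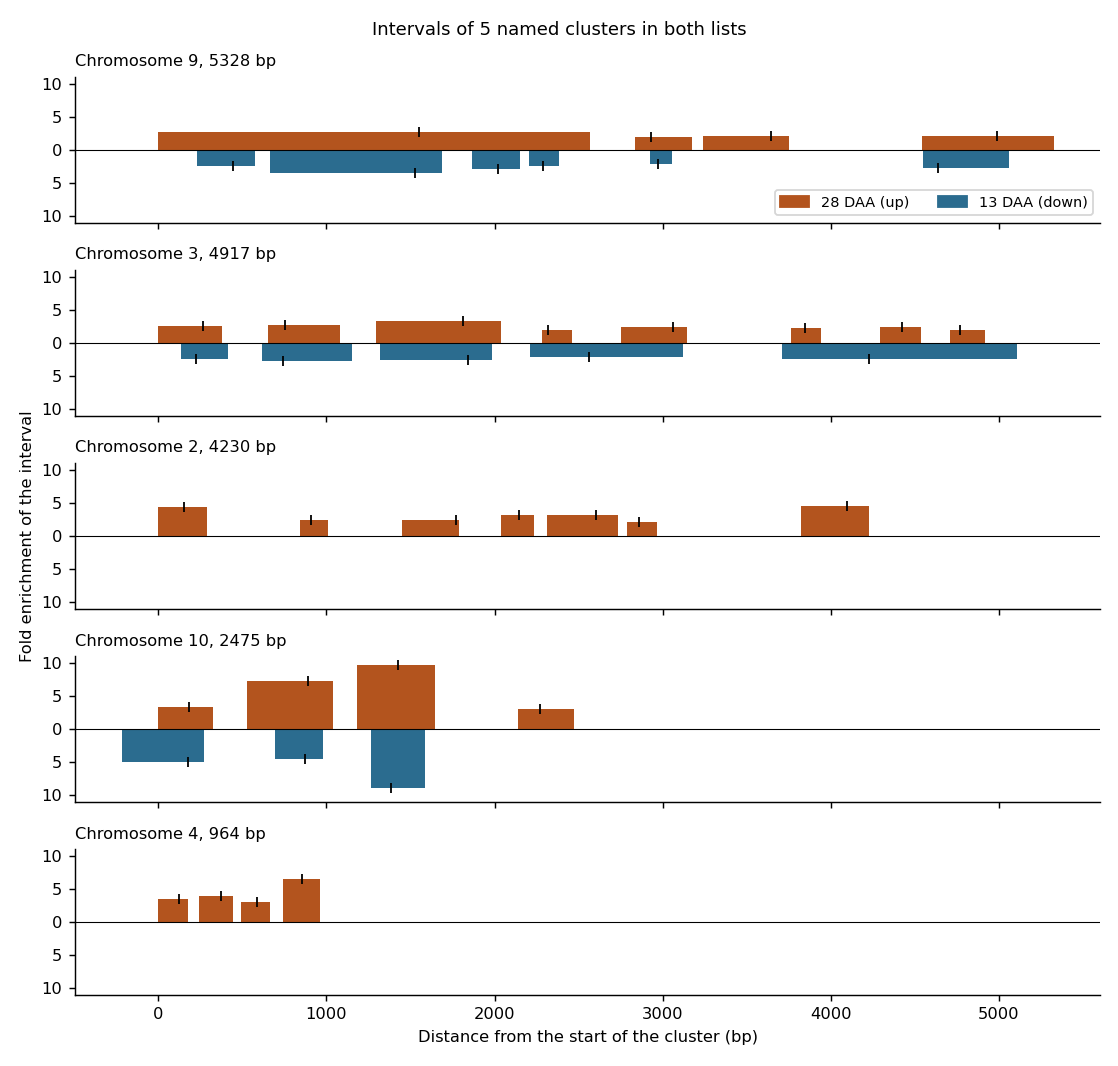
Intervals of 5 named clusters, drawn to scale from the cluster start in bp. Boxes above the line are 28 DAA intervals and boxes below it 13 DAA intervals, box height is the fold enrichment and ticks mark summits. The clusters of chromosomes 9 and 3 had low boxes in both lists, that of chromosome 10 had matched summits at 3 of 4 intervals, and those of chromosomes 2 and 4 had no 13 DAA interval.

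The clusters were spread over all 17 chromosomes. Their density had a median of 0.530 per Mb and ran between 0.354 on chromosome 2 and 0.683 on chromosome 6. As a share of the joined domains of a chromosome they made up 1.43% on chromosome 16 and 2.18% on chromosome 6, with the other chromosomes between. Along the chromosomes, divided into 10 equal parts, the share ran between 1.55% and 2.13%, lowest in the second part and highest in the fifth. The percentage of clusters with a 13 DAA interval was 56.4% on chromosome 15 and 76.1% on chromosome 12, with the other chromosomes between. Neighbouring clusters were a median of 1127690 bp apart, and only 21 pairs lay within 10 kb. The nearest 28 DAA interval outside a cluster was a median of 7854 bp away, against 7456 bp for domains of 3, 6852 bp for domains of 2 and 6606 bp for single intervals. The rule itself sets a distance of over 1000 bp. Clusters of 1 library are not replicates, and nearby ones are not independent.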

How the data were processed

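H3K4me3 ChIP-Seq of 1 library per stage (28 and 13 DAA) was analyzed. Read filtering (FASTX-Toolkit), mapping to the XRQ genome (BWA-MEM), duplicate removal (Picard) and peak calling for each stage (MACS2) were done by the authors. The mapped share of reads and the signal-to-noise of the libraries differed between the stages per the study's text and were not recomputed here. An input control is not named in the sources used here. The deposited score is 10 times the −log10 q-value without its decimals. The deposited ratio, or fold enrichment, is that at the summit. The authors gave each p-value and q-value as −log10. Ends and summits are in bp.

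Intervals on the 17 chromosomes were joined at gaps of at most 1000 bp and domains of 4 or more were kept. Overlap meant at least 1 bp. Summit fragments were solved from fold enrichment and p-value with 1 as pseudocount, allowing an error of 0.001 on −log10 p, and 10 kb counts were called whole within 0.05. Joining, overlap and fragment solving were tested on simulated data. Shares carry 95% Wilson, medians order-statistic and fragments Poisson intervals, for counting error only. No test was made, because there was 1 library per stage and the members came from 1 list. The depth limit was set by the peak caller: the fewest fragments at a called summit were 11 at 28 DAA and 10 at 13 DAA.

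The named clusters were the 5 with most intervals, the 3 longest, the 3 shortest, the 3 with most 13 DAA intervals, the 3 longest without one, the 3 with the strongest summits, and those of largest and smallest mean spacing. The members and these lists were chosen with earlier results of these data known. The fragment classes, the order within clusters with its rules of overlap and the set with a deep 13 DAA background were added after the lists had been seen. The alternatives were gaps of 500 and 2000 bp, a q-value of at most 1e-10, 5 or more intervals, and 2 stricter rules of overlap. Gene models were not used here, no gene is named and no sequence is shown. The tools were pandas 2.3.3 and numpy 2.4.6 under Python 3.11.15, with statsmodels 0.14.6 and scipy 1.17.1 for intervals and matplotlib 3.10.9 for plots.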

Additional observations from a re-analysis of the deposited data

Results flagged for a closer look

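Clusters of called intervals were also present outside the 17 chromosomes, in sequences that no comparison above used. Whether intervals on these sequences, above all the mitochondrial one, carry H3K4me3 was not tested, and they are not read here as marked. The counts that held a 13 DAA interval are given without the share over all domains of these sequences. On the unplaced sequences, 25 of 617 joined domains (4.05%, 95% Wilson interval 2.76 to 5.91) had 4 or more intervals, each cluster on a sequence of its own, and 23 of them held a 13 DAA interval. Their median length was 2940 bp, with a median fold enrichment of 2.53 over a local background of 31.0 fragments. In the 23 with a 13 DAA interval, the local background was 14.3 times the genome-wide one at 28 DAA and 24.4 times at 13 DAA, and the ratio of the first to the second had quartiles of 0.568 and 0.656. On the mitochondrial sequence, 3 of 55 domains (5.45%, 95% Wilson interval 1.87 to 14.9) had 4 or more intervals, and all 3 held a 13 DAA interval. Their median fold enrichment was 2.68 over a background of 34.7 fragments, and the same ratio had a median of 1.27. The plastid sequence had 0 of 25 domains, which allows a share of up to 12%.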

How the results depend on the processing

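Of 34 values under alternatives, 13 stayed within the limits set for a like value and 21 moved. A gap of at most 500 bp gave 753 clusters, a median length of 1990 bp and a spacing of 524 bp, and a gap of at most 2000 bp gave 2301 clusters, 2701 bp and 652 bp, while the shares with 13 DAA intervals stayed. Requiring 5 or more intervals gave 222 clusters, 2932 bp, a spacing of 574 bp and a fold enrichment of 3.93. A 13 DAA interval was found in 73.9% of these, against 42.7% of all joined domains. Limiting both lists to a q-value of 1e-10 or less gave 753 clusters, all overlapping one of the 1532, with 2273 bp, a spacing of 577 bp, a fold enrichment of 4.71, a 13 DAA interval in 47.3%, a median of 0 13 DAA intervals, and 15.5% of member intervals overlapped; fewer 13 DAA intervals pass this limit by its construction. With a 13 DAA interval wholly inside, the shares were 60.5% of clusters, against 30.3% of all joined domains, and 18.9% of member intervals. With its summit inside, the share of member intervals was 25.0%. Shares over all domains or intervals are not given for the q-value limit, nor over all intervals for these rules of overlap. The median 13 DAA summit in clusters had 24 fragments and none was called below 10. The number needed for a call rises with the local background. A cluster without a 13 DAA interval therefore had none called, and whether the mark was absent there was not tested. No paired analysis was possible because each stage had a single library.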
